A study of Mus musculus with 9 samples.

Results

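The Klf genes outside the naive pluripotency network were taken as a fixed list of 10 mouse genes, Klf3, Klf6, Klf7, Klf9, Klf10, Klf11, Klf12, Klf13, Klf15 and Klf16, out of 21900 protein-coding genes of RefSeq on GRCm38 (the build also called mm10). Every m6A peak of the wild-type cells within 500 bp of 1 of these gene bodies was collected. N6-methyladenosine (m6A) is the most common internal modification of mRNA, and m6A-RIP-seq recovers RNA fragments that carry it with an antibody and compares them with input RNA. The samples used were immunoprecipitation replicates 1 and 2 of wild-type (WT) mouse embryonic stem cells (mESCs), whose background the labels give as Rosa26:CRE with Bir ligase and which carry no knockout. The other 7 libraries, those of the Mettl3KO and Zc3h13KO cells and all inputs, were not analysed here, so no genotypes were compared. MACS2 had been run by the authors on either immunoprecipitation by itself, against input. The labels list a single wild-type input and no separate input for each replicate. The authors describe the m6A immunoprecipitations as independent, but no source states that the replicates came from separate cultures. In the deposited lists the names of the replicate 1 peaks contain "H4" where those of replicate 2 contain "WT", and no source used here explains "H4", so values of replicate 2 by itself are stated beside those of both.

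Klf proteins are transcription factors that bind GC-rich and CACCC elements of DNA through zinc fingers at their C terminus. Klf2, Klf4 and Klf5 belong to the network that keeps embryonic stem cells in the naive state. The genes described here have other known roles. Klf3 and Klf12 are repressors that recruit the corepressor CtBP. Klf9, Klf10, Klf11, Klf13 and Klf16 recruit the corepressor Sin3. Klf6 and Klf7 are mostly activators, and Klf15 acts in glucose and amino acid metabolism.

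All 10 Klf genes had a peak in replicate 1 and 6 of them also had a peak in replicate 2, namely Klf6, Klf7, Klf11, Klf12, Klf15 and Klf16. Of all protein-coding genes, 41.3% had a peak in replicate 1, 16.9% in replicate 2 and 16.1% in both. With replicate 2 by itself the count was the same 6 genes. The gene bodies of the 10 genes ran from 8905 bp (Klf6) to 419711 bp (Klf12). Among the 14195 protein-coding genes within that range of lengths, 49.2% had a peak in replicate 1 and 19.2% in both. No enrichment test was made, since the list was drawn up with earlier results of these data known. At a fold enrichment over input of at least 4, 6 of the 10 genes kept a replicate 1 peak, and 8 did when the replicate 1 list was shortened to the length of the replicate 2 list by −log10 q. The share of all protein-coding genes was not computed at either setting, so the percentages above are not a background for these counts. Peak lists hold no read counts, so sequencing depth is unknown, and a gene without a listed peak is not shown to lack m6A.

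There were 33 peaks at the 10 genes in replicate 1 and 9 in replicate 2. All of these touched a gene body. The nearest peak that the 500 bp limit left out lay 1536 bp from Klf3, in replicate 1 alone, with a fold enrichment over input of 3.74. Each of the 9 replicate 2 peaks overlapped a replicate 1 peak (100%, 95% exact binomial interval 66.4% to 100%, counting error only), against 92.1% of all 5040 peaks of replicate 2. In the other direction 9 of the 33 replicate 1 peaks overlapped a replicate 2 peak (27.3%, interval 13.3% to 45.5%), against 19.1% of all 22531 peaks of replicate 1. The values of the whole lists lay inside both intervals. These intervals count peaks as independent although several lie in the same gene, so this is a description and no test. Summits of the 9 overlapping pairs were 0 to 170 bp apart, with a median of 51 bp, and 4 pairs were within 10 bp. Over all 4640 overlapping pairs of the lists the median was 9 bp.

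**Figure D1:**
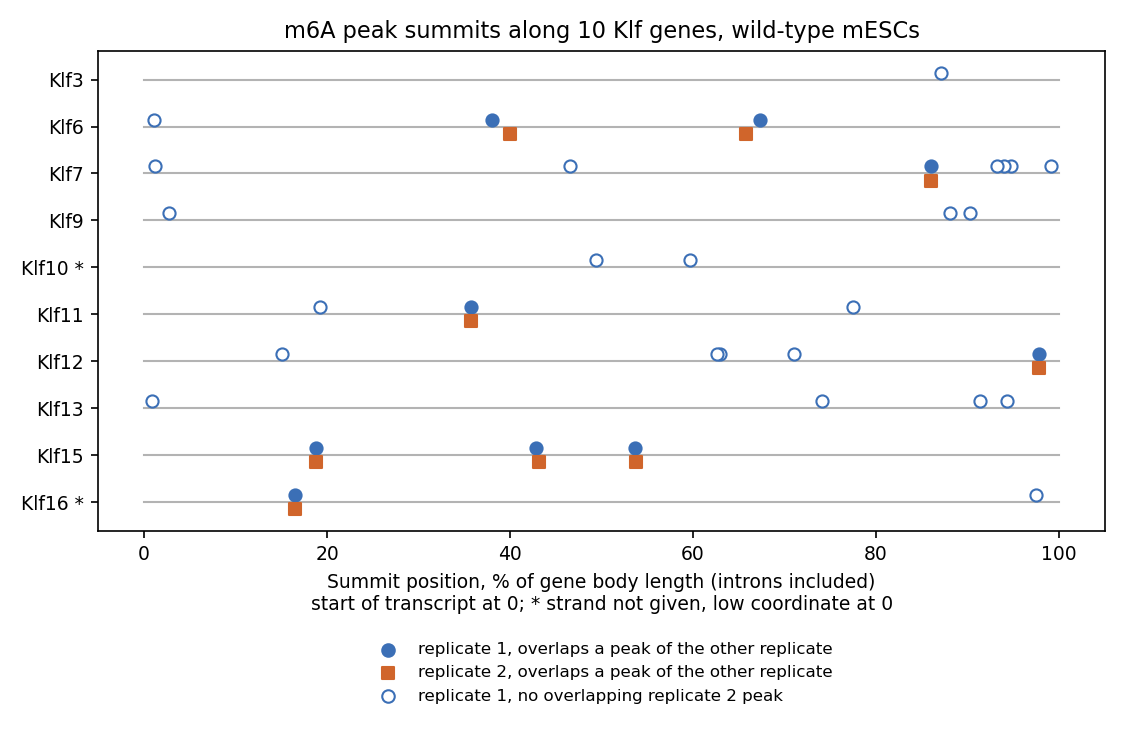
Summits of every m6A peak at the 10 Klf genes, by position in the gene body in percent of its length, from the transcript start on the left (low coordinate on the left for Klf10 and Klf16, whose strand was not given). Filled circles (replicate 1) and squares (replicate 2) overlap a peak of the other replicate, and the 24 open circles are replicate 1 peaks with no replicate 2 counterpart.

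The CtBP-binding repressors Klf3 and Klf12 had 6 peaks in replicate 1 between them, of which 5 were in Klf12. Klf3 (chromosome 5, 64803521 to 64832901, plus strand) had a single peak, in replicate 1, from 64828833 to 64829243. Its fold enrichment was 2.06 and its −log10 q was 26.4, where q is the MACS2 p-value adjusted for the number of tests. Only 5.23% of the peaks of that list had as low a fold enrichment. The summit lay 3794 bp before the annotated transcript end. Klf12 (chromosome 14, 99866181 to 100285891, minus strand), the longest gene of the list, had 5 peaks in replicate 1 and 1 in replicate 2. Its peak nearest to the transcript end ran from 99874596 to 99875542 in replicate 1 and showed 10.2-fold enrichment, the highest at the 10 genes in that replicate. The replicate 2 peak ran from 99875058 to 99875463 and showed 7.66-fold enrichment. The summits of these peaks were 1 bp apart, about 9 kb from the end (9046 bp in replicate 1). The other 4 replicate 1 peaks of Klf12, at 15.1% to 71.1% of the gene body from its start, had fold enrichments of 5.70 to 8.68 and no replicate 2 counterpart. Among them was a peak from 100022721 to 100023312 with a −log10 q of 121.3, above the 83.3 of the shared peak.

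Of the 5 Sin3-binding repressors, Klf11 and Klf16 had a peak in both replicates, and Klf9, Klf10 and Klf13 had peaks in replicate 1 only. Klf11 (chromosome 12, 24651371 to 24662782, plus strand), also known as TIEG2, is a TGF-beta-inducible factor. Its peak from 24654627 to 24655667 in replicate 1 and from 24654748 to 24655655 in replicate 2 had summits 2 bp apart. Enrichment was 4.05-fold in the first list and 7.21-fold in the second. On either side of it lay a narrower replicate 1 peak, with fold enrichments of 5.19 and 4.41, that had no counterpart. Klf16 (chromosome 10, 80567121 to 80577296) is a regulator first described at dopamine receptor genes. Its shared peak ran from 80568514 to 80569325 in replicate 1, where the fold enrichment was 2.58. In replicate 2 it ran from 80568574 to 80569318 with 4.71-fold enrichment, and the summits were 6 bp apart. Thus the shared sites of Klf11 and Klf16 were placed almost identically in the replicates. A second replicate 1 peak of Klf16 reached 189 bp beyond the high end of the gene body, with 1.76-fold enrichment.

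Klf9 (chromosome 19, 23141226 to 23168129, plus strand), which responds to glucocorticoid and thyroid hormone, had 3 weak peaks in replicate 1. Their fold enrichments were 1.80, 1.55 and 2.65, all among the lowest 13.1% of the list. The last of these, from 23165313 to 23165810, had a −log10 q of 65.4, so a low fold enrichment went with a q better than that of most peaks (78.1% of the list was at or below it). Klf10 (chromosome 15, 38291464 to 38300711), or TIEG1, the other TGF-beta-inducible factor of this group, showed the same combination. Its peaks, from 38295799 to 38296285 and from 38296774 to 38297719, had fold enrichments of 2.53 and 2.68 and −log10 q values of 45.6 and 69.1.

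Klf13 (chromosome 7, 63886351 to 63938915, minus strand), an activator of chemokine genes in lymphocytes as well as a Sin3 partner, had 4 peaks in replicate 1 and none in replicate 2. The peak from 63889714 to 63891856 was the widest (2143 bp) and had the highest −log10 q (237.0) of all peaks at the 10 genes. Its enrichment was 7.28-fold, and its summit lay 4558 bp before the transcript end. Its −log10 q was at or above that of 99.6% of the replicate 1 list, yet the nearest replicate 2 peak was 131946 bp away. Of the 274 replicate 1 peaks with a −log10 q of at least 200, 77.7% overlapped a replicate 2 peak. At the 10 genes there were 2 such peaks, this one and a peak of Klf7, and 0 of them did. The threshold of 200 was set after these values were seen. Of the other peaks of Klf13, that from 63899839 to 63900136 also lay within 500 bp of the lncRNA gene Gm27252.

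**Figure D2:**
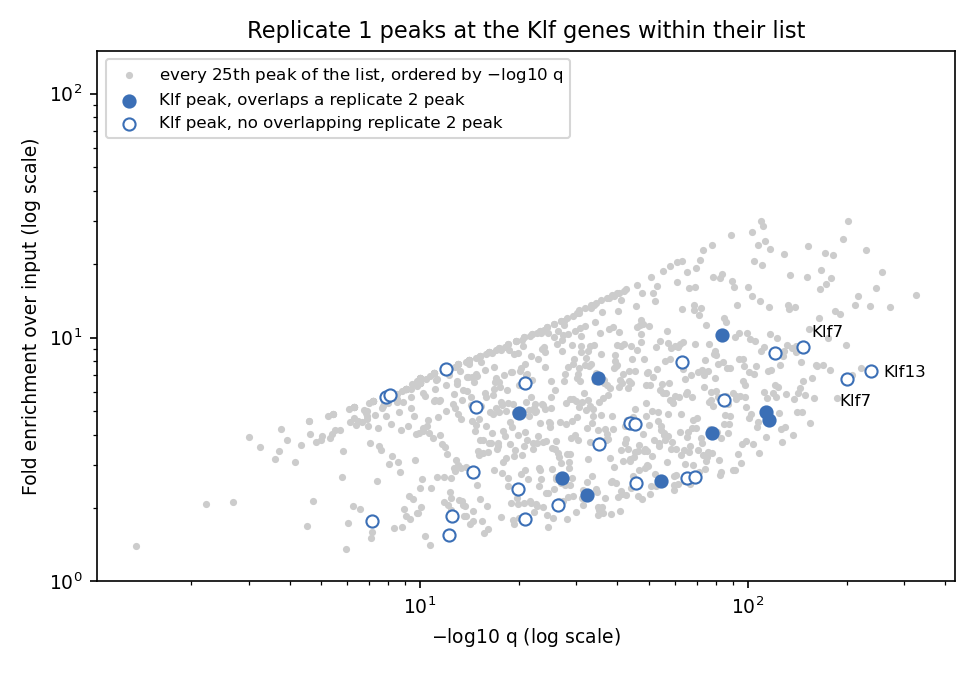
Fold enrichment over input against −log10 q, both on log scales, for replicate 1 peaks. Grey points are every 25th peak of the whole list in order of −log10 q, blue points are the 33 Klf peaks, and open points are those without a replicate 2 counterpart. The Klf13 peak (237.0) and a Klf7 peak (201.0) stand at the right edge among the open points, and the highest filled point on the horizontal axis is at 116.1.

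Klf6 and Klf7, close relatives within the family, each had shared and unshared peaks. Klf6 (chromosome 13, 5861489 to 5870393, plus strand), a widely expressed growth regulator, had 3 peaks in replicate 1 and 2 in replicate 2. The peak from 5864651 to 5865165 had 4.97-fold enrichment in replicate 1, and its replicate 2 counterpart (5864678 to 5865177) had 5.36. The next, from 5867031 to 5867999, had 2.26 in replicate 1, and its counterpart (5867068 to 5868083) had 8.36. In fold enrichment the replicates thus lay close to each other at the first of these sites and far apart at the next. Their summits were 170 bp apart at the first, the largest distance of the 9 pairs, and 138 bp apart at the next. The highest fold enrichment of Klf6 in replicate 1, 7.96, belonged to an unshared peak at the transcript start, from 5861458 to 5861781. Peaks covered 1777 of the 8905 bp of the Klf6 gene body in replicate 1, the highest share of the 10 genes, and 1516 bp in replicate 2.

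Klf7 (chromosome 1, 64029448 to 64122345, minus strand), which acts in developing neurons, had the most peaks, 7 in replicate 1, but only 1 in replicate 2. The last 4 of these in transcript order lay within 801 to 6270 bp of the transcript end, with fold enrichments of 2.40 to 4.47. The strongest by −log10 q (201.0) ran from 64078763 to 64079531 and had 6.77-fold enrichment. It also covered the annotated start of Gm13748, a lncRNA gene on the plus strand, and without strand in the peak lists the genes cannot be told apart there. The highest fold enrichment, 9.14, was at the annotated transcript start, from 64121000 to 64121478, within 500 bp of the plus-strand lncRNA gene Gm35880. None of these 6 peaks had a counterpart in replicate 2.

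The single Klf7 site present in both replicates covered the whole hairpin of a microRNA gene, Mir6899, on the same strand as Klf7 (chr1:64042438-64042501). The hairpin and its mature products are shown because they lie under this peak, from RefSeq on GRCm38.p6 and written 5′ to 3′. The hairpin is 64 bp long and so only a part of the peak, which was 305 bp wide in replicate 1. Capitals mark the mature arms in the hairpin and the seed, bases 2 to 8, in each mature sequence.
Mir6899 hairpin: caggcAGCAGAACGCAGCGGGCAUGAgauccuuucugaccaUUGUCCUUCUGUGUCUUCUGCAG
mmu-miR-6899-5p: aGCAGAACgcagcgggcauga
mmu-miR-6899-3p: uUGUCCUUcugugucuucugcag
The replicate 1 peak ran from 64042354 to 64042658 and showed 6.81-fold enrichment and a −log10 q of 34.9, and its summit fell inside the hairpin. The replicate 2 peak ran from 64042345 to 64042646 and showed 6.28-fold enrichment and a −log10 q of 6.43, and its summit was 13 bp outside the hairpin. Of 1003 annotated mouse miRNA hairpins, 4.19% lay wholly inside a replicate 1 peak, and 6 (0.598%) did so in both replicates. The peak extended 84 bp and 157 bp beyond the hairpin's ends in replicate 1. The hairpin lies inside the Klf7 gene body, and the authors had selected the RNA with oligo-dT before the immunoprecipitation. Whether the methylated RNA was the Klf7 transcript or the miRNA precursor cannot be told apart from the peaks and was not tested. Exon positions were not available here.

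Klf15 (chromosome 6, 90461043 to 90491803, plus strand), a regulator of gluconeogenesis, was the gene of the list whose peaks all had a counterpart, 3 in each replicate. In replicate 1 the fold enrichments were 4.57, 2.66 and 4.89 in transcript order. In replicate 2 they were 3.98, 12.8 and 10.7. The middle and last sites were thus above the first in replicate 2, while in replicate 1 the middle site was the lowest. By −log10 q the first site, from 90466288 to 90467435, led in replicate 1 with 116.1, against 27.2 and 19.98. In replicate 2 the first site came last with 6.09, against 18.7 and 13.5, and the middle site was above the last in both replicates. At that first site the summits coincided (0 bp apart), and at the middle and last sites they were 111 and 51 bp apart. The middle site of replicate 2, from 90473982 to 90474904, had the highest fold enrichment of any peak at the 10 genes in either replicate, and 94.5% of the peaks of its list were at or below it.

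**Figure D3:**
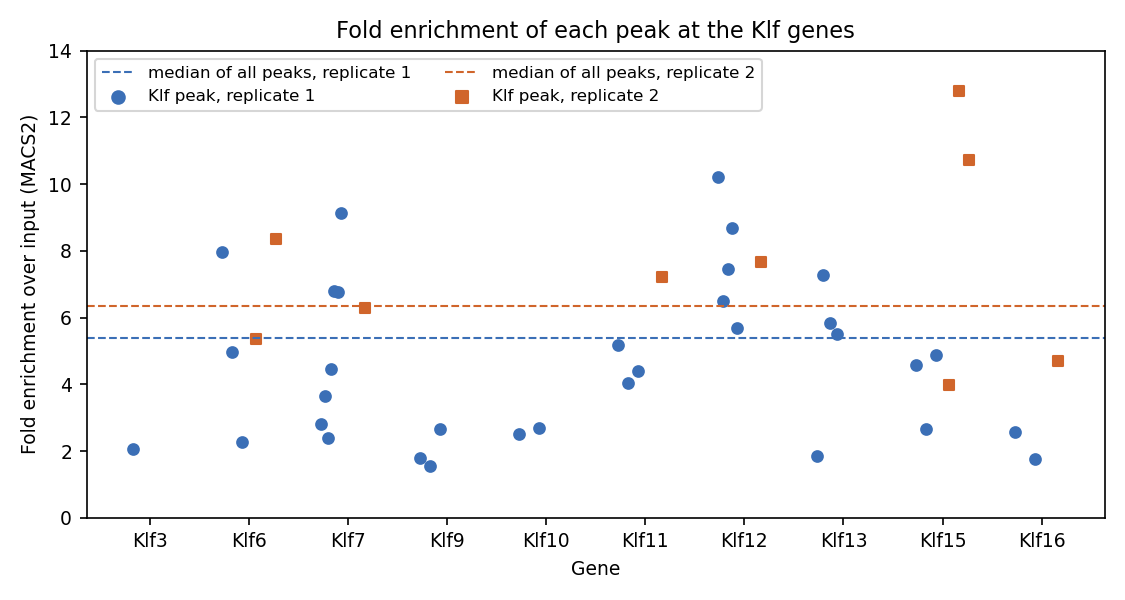
Fold enrichment over input of each peak at the 10 Klf genes, circles for replicate 1 and squares for replicate 2, with the median of each whole list as a dashed line (5.39 and 6.35). Every circle of Klf3, Klf9, Klf10, Klf11, Klf15 and Klf16 is under the replicate 1 line, and the highest squares are those of Klf15.

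Over the 10 genes, fold enrichment in replicate 1 ran from 1.55 to 10.2 with a median of 4.47, against 5.39 over the whole list, and 12 of 33 peaks were above the list's median. In replicate 2 it ran from 3.98 to 12.8 with a median of 7.21, against 6.35, and 5 of 9 peaks were above. By −log10 q the median in replicate 1 was 35.1, against 28.9 over the whole list, and 19 of 33 peaks were above the list's median. In replicate 2 the median −log10 q was 9.25, against 7.54, and 6 of 9 peaks were above. Of the 9 overlapping pairs 6 had the higher fold enrichment in replicate 2 and 3 (Klf7, Klf12 and the first site of Klf15) in replicate 1. Over all overlapping pairs the higher value was in replicate 2 in 50.7%. The −log10 q was higher in replicate 1 in all 9 pairs, as in 99.1% of all overlapping pairs, so this count is that of the lists as a whole. The 9 replicate 1 peaks with a counterpart had a median width of 812 bp, and the 24 without one had 475.5 bp. Their median fold enrichments were 4.57 and 4.44, and their median −log10 q values were 54.2 and 30.7. The same split was not computed over the whole list. With values from 1 peak list each and no counts, no test of these differences was made.

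Strand was available for 8 of the 10 genes, all but Klf10 and Klf16, from RefSeq promoter windows (250 bp before to 50 bp after a transcript start). Of the 29 replicate 1 summits at these 8 genes, 11 lay in the last 20% of the gene body. Over all replicate 1 summits inside exactly 1 protein-coding gene of known strand, 46.2% did. In replicate 2 it was 2 of 8 summits, those of Klf7 and Klf12, against 59.9%. Introns count in these lengths.

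At the start, 4 of the 8 genes had a replicate 1 peak that reached their own promoter window, namely Klf6, Klf7, Klf9 and Klf13. In transcript direction the summits lay 94, 194, 744 and 426 bp past the start. For Klf7 this start is that of the promoter table, and the RefSeq gene body begins farther upstream, so that the same summit was 1150 bp inside it. The table's starts of Klf12 and Klf15, which no peak reached, also lay inside the gene body. With the Klf7 peak at the Gm13748 start, 5 replicate 1 peaks reached a promoter window, 0 of the 5 had a replicate 2 counterpart, and no replicate 2 peak at the 10 genes reached a promoter window. The peak at Klf13 had 5.52-fold enrichment. That of Klf9 began 578 bp before the gene body and spanned the whole window. Over the whole list of replicate 1, 7.90% of the peaks reached a promoter window and 20.2% of those had a replicate 2 counterpart, against 19.1% of all peaks. The 7.90% is a share of peaks, to be set beside 5 of the 33 peaks at the 10 genes. The share of all genes with a peak at their own window was not computed. In replicate 2, 4.94% of the peaks reached a window. No test was made on so few peaks. The sequences around these starts, where replicate 1 peaks were listed, are given from RefSeq on GRCm38.p6 with the first 30 transcribed bases in capitals after 70 bases upstream.
Klf6, chr13:5861419-5861518, plus strand: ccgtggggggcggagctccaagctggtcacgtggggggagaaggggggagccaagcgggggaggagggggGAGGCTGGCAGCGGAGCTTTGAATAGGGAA
Klf7, chr1:64121360-64121459, minus strand: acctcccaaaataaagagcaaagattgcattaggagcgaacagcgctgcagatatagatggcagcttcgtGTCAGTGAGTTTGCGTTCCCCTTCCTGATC
Klf9, chr19:23141156-23141255, plus strand: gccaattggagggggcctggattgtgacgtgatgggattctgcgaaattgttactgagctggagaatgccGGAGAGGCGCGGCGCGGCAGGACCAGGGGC
Klf13, chr7:63938886-63938985, minus strand: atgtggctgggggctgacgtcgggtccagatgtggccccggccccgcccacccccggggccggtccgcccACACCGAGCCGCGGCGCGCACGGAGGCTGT
The common forms of the m6A consensus (GGAC, or AGAC instead, with T, A or C as the next base, searched on the transcript strand in the 50 transcribed bases) were found at 1 of the 8 starts, as GGACC in Klf9. Of 32817 distinct promoter windows, 28.3% held at least 1 of them there. These windows are not limited to protein-coding genes and include lncRNA starts such as that of Gm13748, whereas the 8 genes are all protein-coding. The starts searched included some without a peak. The summits given above all lay past these 50 bases, so the search does not describe the sequence at the summits. The elements that Klf proteins bind were searched on both strands of the whole windows. GGGCGG, the core of the GC box, was in 6 of the 8 windows and in 35.6% of all windows. CACCC was in 6 of 8 and in 57.5% of all. Klf3 held 6 copies of GGGCGG and 5 of CACCC.

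In the family as a whole, all 26 Sp and Klf genes examined had a replicate 1 peak, and 11 had a peak in both replicates. Of all protein-coding genes, the shares to set beside the counts of this paragraph were 41.3% in replicate 1 and 16.1% in both. Among the naive network genes Klf2, Klf4 and Klf5, 0 of 3 had a peak in both. Their highest fold enrichments in replicate 1 ran from 1.41 to 2.61. The highest per gene over the 10 genes ran from 2.06 to 10.2, with a median of 5.04. Of the 4 other Klf genes (Klf1, Klf8, Klf14 and Klf17), 1 was in both lists, the erythroid factor Klf1, with 10.5 in replicate 1 and 8.18 in replicate 2. The highest fold enrichments of these 4 genes in replicate 1 ran from 8.06 to 15.2, with a median of 11.2. The 9 Sp genes had a median highest fold enrichment of 8.26, and 4 of them were in both. Of the 6 genes of corepressors that Klf proteins recruit (Ctbp1, Ctbp2, Sin3a, Sin3b, Hdac1 and Hdac2), 3 had a peak in replicate 1 and 1 of these, Sin3b, in both, with 3.70 and 6.13. The lists are small and were not tested against each other.

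**Figure D4:**
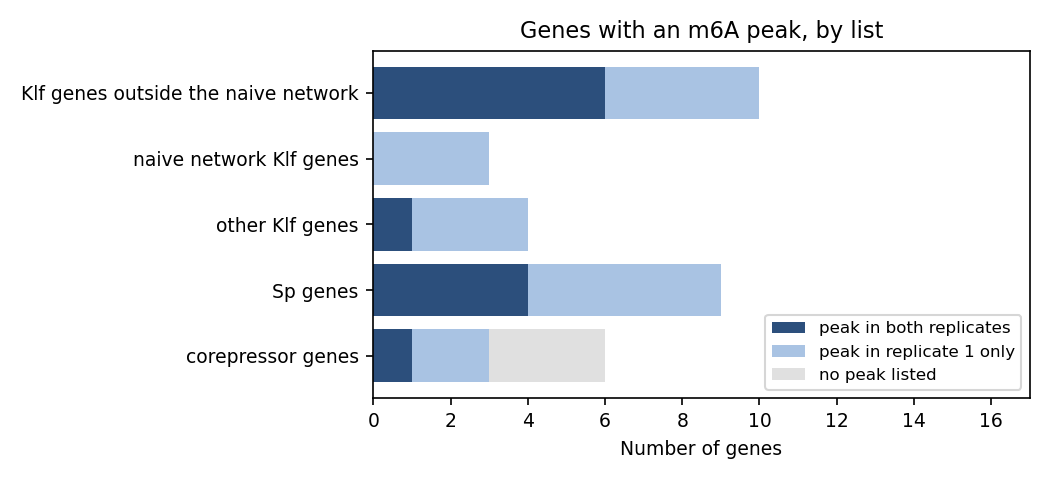
Number of genes with an m6A peak within 500 bp in both wild-type replicates (dark), in replicate 1 only (light) or with no peak listed (grey), for the 10 Klf genes and 4 other lists of 3, 4, 9 and 6 genes. The first 4 lists, which hold all 26 Sp and Klf genes, have no grey part.

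The stem cell marker genes were Pou5f1, Sox2, Nanog, Esrrb, Zfp42, Klf4, Tfcp2l1, Tbx3, Dppa5a and Tdgf1. Of these 10 genes 6 had a replicate 1 peak, against 41.3% of all protein-coding genes. Klf4, 1 of the 6, is also among the naive network genes above. The highest fold enrichments of the 6 genes in replicate 1 ran from 1.27 to 11.8, with a median of 2.25. A single marker, Tbx3, also had a replicate 2 peak, with 2.38-fold enrichment and a −log10 q of 1.87, against 16.9% of all. Of 5 marker genes of differentiated cells 1 (Thy1) had a replicate 1 peak and 0 a replicate 2 peak. Peak lists give no expression level, so the labelled cell type could not be checked with them.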

How the data were processed

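The authors immunoprecipitated mRNA of wild-type mESCs with an anti-m6A antibody. Bowtie, SAMtools, MACS2 and mm10 are named without versions in the submitters' processing notes. Peaks of each replicate were called by the authors against input with default MACS2 settings. The handling of duplicates and strand was not stated. The deposited values are a fold enrichment (a ratio), −log10 of the p-value and of the q-value, and a score (10 times the −log10 q without its decimals). Neither the score nor the p-value was used.

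Coordinates count from 1. The peaks were joined to RefSeq gene bodies of GRCm38.p6, and strand was read from the promoter table. The allowance was 500 bp and overlap meant at least 1 bp. The percentile of a peak is the percent of its own list at or below it. Intervals are exact binomial. No depth is known, and no test across genes was made. The 10 genes and the lists were chosen with earlier results of these data known. Every gene of the 10 is named, and from other lists those with a peak in both replicates. Thy1 and the genes that only make up a list were named outside that rule, Thy1 after its value was seen. The comparisons of Mir6899, promoter windows, the last 20% of gene bodies, Klf binding elements and a −log10 q of at least 200 were likewise chosen after values were seen. Alternatives are given in the closing section. The overlap and gene assignment steps were tested on simulated data, with 0 differences from known answers. Columns of other samples numbered 0. Python 3.11.15, numpy, pandas, scipy and matplotlib were used.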

Additional observations from a re-analysis of the deposited data

How the results depend on the processing

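The number of Klf genes in both lists, 6, was also found at a −log10 q of 5 or more, at distances of 0 and 2000 bp, by summit alone and with overlapping peaks required. It was 5 when fold enrichment had to reach 4 and when replicate 1 was shortened to the length of replicate 2 by −log10 q, both times for want of Klf16. In the shortened list Klf7 had lost its shared Mir6899 peak and counted through 2 unshared ones, and requiring overlap there as well, a setting chosen after seeing the data, left 4 genes, Klf6, Klf11, Klf12 and Klf15. It was 5, without Klf7, when peaks as near to another gene were dropped. Leaving out 1 replicate gave 6 to 10. Replicate 1 peaks numbered 19 at the fold limit and 11 in the shortened list instead of 33. At the fold limit Klf3, Klf9, Klf10 and Klf16 had no replicate 1 peak left, and in the shortened list Klf3 and Klf16 had none. Of the replicate 2 peaks 62.5% and 44.4% then had a replicate 1 counterpart, since both settings remove replicate 1 peaks by construction. The share was 77.8% for a mutual overlap of 50% and 66.7% for summits at most 100 bp apart. The background of 16.1% became 19.2% within the range of lengths of the 10 genes. It was not recomputed at the fold limit or with the shortened list. For the 11 cases of a gene with more than 1 peak in a replicate, the peak of highest fold enrichment was also that of highest −log10 q in 6, and the 5 others were all in replicate 1. Overlap with exons was not run for want of exon positions. No paired analysis was possible because no groups were compared. The limits set by depth could not be measured.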

Other observations

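Of the 9 Sp genes, relatives of the Klf genes, 4 had a peak in both replicates, against 16.1% of all protein-coding genes. Sp7, known from bone-forming cells, had 30.7-fold enrichment in replicate 1, at or above 99.7% of that list, and 9.78 in replicate 2. Sp5, a Wnt target, had 15.4 and 12.9, with a −log10 q of 229.5 and 18.4. Sp4 had 15.2 and 7.87, and Sp2 had 8.10 and 8.39. Each of the 5 replicate 2 peaks at these 4 genes overlapped a replicate 1 peak, against 92.1% of all replicate 2 peaks.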
